A study of Arabidopsis thaliana with 36 samples.

Results

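The comparison described here is that of ahk3 ahk4 with wild type (WT) in the medial segment of the hypocotyl at 8 h after wounding, in Arabidopsis thaliana. Its members are the count tables whose labels give that genotype, region and time, 3 biological replicates per genotype, 6 of the 36 libraries of the series. All 32833 gene loci of these tables were taken, and 19819 of them had enough reads to be tested. The ahk3 ahk4 seedlings are double mutants of AHK3 and AHK4, which encode receptors of the plant hormone cytokinin, and the WT seedlings are the accession Col-0. Both genotypes germinated in continuous light after cold treatment and then grew in low light, and in both the seedlings were cut above the junction of root and shoot, so wounding and the loss of the root are shared by all 6 libraries. The labels do not give the mutant alleles or the number of seedlings per replicate. They call the replicates biological. The p-values rest on the spread between replicates pooled over all 12 groups of the series, not on that of these 6 libraries alone. The other libraries come from the basal segment next to the cut and from 0 and 16 h after wounding. The series is about adventitious rooting, the forming of roots by stem tissue, and about which cells can be reprogrammed to it.

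Cytokinin is bound by membrane histidine kinases (AHK2, AHK3 and AHK4), which pass a phosphate through histidine phosphotransfer proteins (AHPs) to response regulators in the nucleus. Type-B response regulators are transcription factors, and among their direct targets are the genes of the type-A response regulators, which damp the signal and are the usual readout of it. In the hypocotyl and the root cytokinin is known for its effect on vascular tissue and for acting against the founding of new roots, where it opposes auxin.

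The 6 libraries held between 8200640 and 13184094 reads assigned to genes. Replicate 1 of ahk3 ahk4 stood apart. Its log CPM correlated with those of the other 5 libraries at r between 0.872 and 0.917, against 0.924 to 0.961 among the other pairs. The share of reads aligned at more than 1 place was 3.82%, 15.1% and 21.3% in ahk3 ahk4 replicates 1, 2 and 3, and 28.8%, 17.4% and 6.79% in WT replicates 1, 2 and 3, so that it overlapped between the genotypes but differed widely among replicates. The share of reads outside annotated genes was 1.81%, 3.01% and 3.09% in ahk3 ahk4 and 3.62%, 3.39% and 2.35% in WT. Results that rest on ahk3 ahk4 replicate 1 are therefore given with and without it. Of the 7 marker genes of root epidermis and root hairs 6 had no read in any of the 6 libraries, and markers of shoot epidermis, endodermis, xylem and phloem were present in all 6.

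At 8 h 376 genes were higher and 72 were lower in ahk3 ahk4 than in WT medial segments at an adjusted p under 0.05 (edgeR's quasi-likelihood test, all 12 groups of the series in 1 fit). These are 1.9% and 0.363% of the genes tested, 2.26% together, and 3713 genes (18.7%) had an unadjusted p under 0.05. The median absolute log2 fold change of the called genes was 1.41, while the median over all genes tested was 0.01. The 3 libraries of one genotype lay wholly above or below those of the other for 346 of the genes called higher and 68 of those called lower. Among all genes tested such a separation was found for 9.13% (ahk3 ahk4 above) and 6.67% (ahk3 ahk4 below). In 278 of the 376 genes called higher, ahk3 ahk4 replicate 1 had the highest level of the 3 mutant libraries. Without that library 89 genes were called, 72 higher (0.357%) and 17 lower (0.0842%), and 75 of them were among the 448. Without WT replicate 3 or WT replicate 2 the calls numbered 59 and 110, and without ahk3 ahk4 replicate 3 they numbered 1416. A fit of these 6 libraries alone called 3 genes, AHK3, MRD1 and AT1G27565, and DESeq2 called 1073.

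**Figure D1:**
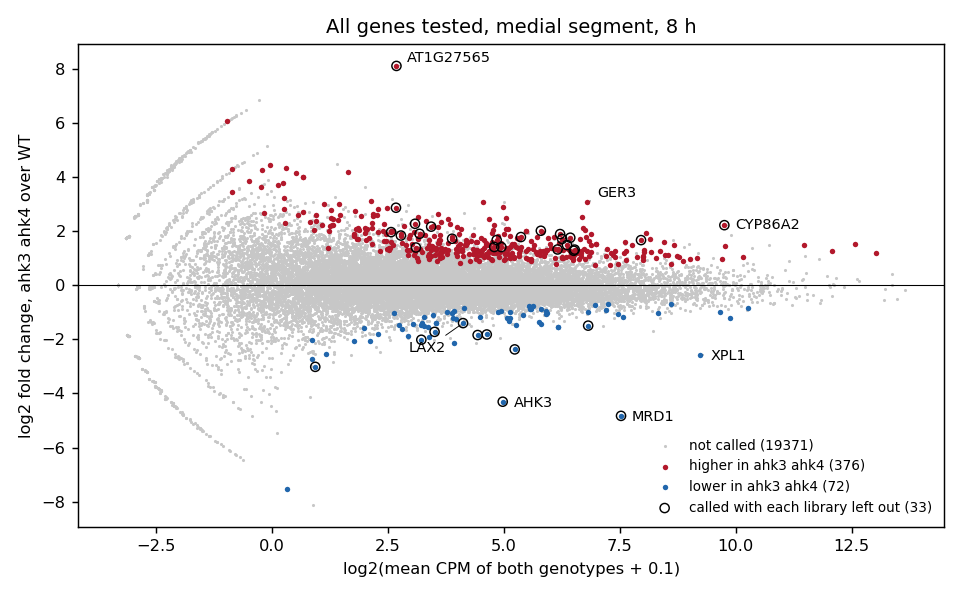
Log2 fold change (ahk3 ahk4 over WT, y axis) against log2 of the mean CPM plus 0.1 (x axis) for the 19819 genes tested in medial segments at 8 h. Red points are the 376 genes called higher and blue points the 72 called lower, and rings mark the 33 genes called with each of the 6 libraries left out in turn. AHK3 and MRD1 lie at -4.31 and -4.83 and AT1G27565 at 8.10.

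The mutated receptor gene AHK3 had 2.88, 2.02 and 4.22 CPM (read counts scaled to the TMM-adjusted library total) in ahk3 ahk4 and 56.9, 63.3 and 59.0 CPM in WT. Its log2 fold change was -4.31 ± 0.38 (SE here and below, adjusted p = 3.09e-09), and it was called with every library left out. AHK4, the other mutated receptor, had 0.810, 1.54 and 1.95 CPM in ahk3 ahk4 and 4.52, 4.81 and 3.42 CPM in WT. The libraries did not overlap, but the difference of -1.57 ± 0.54 did not pass (adjusted p = 0.105; 0.0374 by DESeq2). AHK2, the receptor gene that is intact in both genotypes, had 1.89, 1.46 and 1.73 CPM in ahk3 ahk4 and 2.54, 1.60 and 3.00 CPM in WT, and its libraries overlapped (-0.49 ± 0.58, adjusted p = 0.694). The positions of the mutations are not given, so it is unknown whether reads from the 3' end cover them, and reads from beyond an insertion would not check the labels.

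Of the type-A response regulators 8 of 10 were tested. All 8 had a negative log2 fold change. Of the 8, 1 was called lower and 5 had every ahk3 ahk4 library below every WT library, against 0.363% and 6.67% of all genes tested. The called gene, ARR4, had 30.4, 38.1 and 32.3 CPM in ahk3 ahk4 and 61.5, 60.8 and 62.5 CPM in WT. The replicates of each genotype lay close together and apart from the other genotype, with a log2 fold change of -0.87 ± 0.21 (adjusted p = 0.0234; without ahk3 ahk4 replicate 1, -0.81 and 0.137). ARR6 had 0.900, 6.32 and 5.85 CPM in ahk3 ahk4 and 13.1, 10.9 and 14.8 CPM in WT (-1.57 ± 0.46, adjusted p = 0.0579). ARR7 had 3.06, 5.34 and 5.20 CPM in ahk3 ahk4 and 15.4, 13.9 and 8.18 CPM in WT (-1.46 ± 0.49, adjusted p = 0.102). ARR9 had 5.67, 32.95 and 19.6 CPM in ahk3 ahk4 and 41.0, 34.8 and 71.1 CPM in WT (-1.33 ± 0.39, adjusted p = 0.0629). In these 3 genes the genotypes did not overlap, ahk3 ahk4 replicate 1 was the lowest library, and none passed. ARR16 was rare, with at most 0.648 CPM in ahk3 ahk4 and at least 1.52 CPM in WT (-2.31 ± 1.12, adjusted p = 0.261). ARR5, ARR8 and ARR15 overlapped between the genotypes, with log2 fold changes of -0.36, -0.38 and -1.62.

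The summed level of the type-A genes was 67.8, 113 and 91.8 CPM in ahk3 ahk4 and 175.7, 155 and 195 CPM in WT, with no overlap. Their median log2 fold change was -1.40 against 0.01 over all genes tested, and -0.98 without ahk3 ahk4 replicate 1, in which fit none of the 8 was called. As tissue was measured in bulk, fewer cells with a transcript and less of it per cell cannot be told apart, here and in all that follows.

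**Figure D2:**
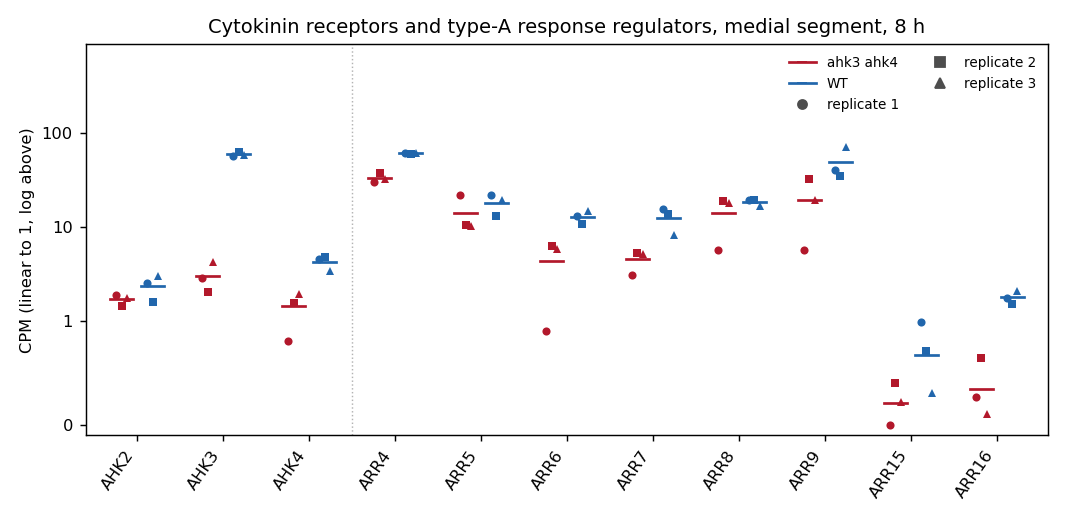
CPM (y axis, linear up to 1 and logarithmic above) of the 3 cytokinin receptor genes and the 8 tested type-A response regulator genes in each library of medial segments at 8 h. Red is ahk3 ahk4 and blue is WT, symbols give the replicate and bars the mean of 3 libraries. AHK3, AHK4, ARR4, ARR6, ARR7, ARR9 and ARR16 show no overlap between the genotypes, and the ahk3 ahk4 libraries are the lower ones.

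The other steps of the pathway held no gene that passed. Of the 5 tested AHPs 3 had positive values, and AHP3 had 11.3, 22.9 and 25.01 CPM in ahk3 ahk4, all below the 32.0, 33.3 and 41.3 CPM of WT (-0.85 ± 0.28, adjusted p = 0.0912). Among 6 type-B response regulators ARR10, one of the main transcription factors of the response, had 7.20, 10.8 and 7.58 CPM in ahk3 ahk4, again below the 16.2, 15.4 and 12.7 CPM of WT (-0.79 ± 0.26, adjusted p = 0.0953). The remaining type-B genes overlapped between the genotypes, with log2 fold changes between -1.03 and 0.34. The 5 cytokinin response factors (CRF2 to CRF6) and the 5 further cytokinin-induced genes, among them the GATA factors CGA1 and GNC, all overlapped, with medians of 0.02 and -0.10.

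Cytokinin synthesis and breakdown differed in sign without a call. The median over 11 synthesis and activation genes was 0.62, or 0.31 without ahk3 ahk4 replicate 1. Of the 15 genes listed 6 had under 1 CPM in all 6 libraries. IPT5, an isopentenyltransferase of the first step, had 20.3, 21.4 and 15.3 CPM in ahk3 ahk4, above the 11.3, 8.38 and 12.1 CPM of WT (0.84 ± 0.34, adjusted p = 0.178). Over 5 cytokinin oxidase genes, which break the hormone down, the median was -1.08, or -0.99 without ahk3 ahk4 replicate 1. Here 3 of the 7 listed had under 1 CPM in all 6 libraries. CKX6 had 4.77, 7.94 and 3.68 CPM in ahk3 ahk4, below the 9.48, 12.4 and 13.1 CPM of WT (-1.08 ± 0.41, adjusted p = 0.142). CKX3 had no read in the 3 ahk3 ahk4 libraries and 0.993, 0.178 and 0.622 CPM in WT, which makes it at least 6.19-fold lower when the mutant group is set at 3 counts (adjusted p = 0.141). Genes tied to cytokinin by their known roles were also called outside these lists. KMD4, an F-box protein of a family that marks type-B response regulators for degradation, had 16.9, 77.2 and 66.9 CPM in ahk3 ahk4 and 14.8, 15.2 and 7.98 CPM in WT. It was called higher (2.08 ± 0.53, adjusted p = 0.0326) with the lowest mutant library only just above WT, and also without that library, replicate 1 (2.51, adjusted p = 0.0150). ABCG14, a transporter that loads cytokinin into the xylem of the root, was chosen after its values were seen. It had 8.55, 24.3 and 26.4 CPM in ahk3 ahk4, below the 48.8, 42.9 and 56.4 CPM of WT (-1.32 ± 0.31, adjusted p = 0.0194; 0.173 without ahk3 ahk4 replicate 1).

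The most stable differences were those of 33 genes, 23 higher and 10 lower, that were called with each of the 6 libraries left out in turn. Beside AHK3, the lower ones included MRD1, a short transcript first named for falling in a methionine-overaccumulating mutant. MRD1 had 7.92, 14.9 and 14.7 CPM in ahk3 ahk4 and 229, 273 and 566 CPM in WT (-4.83 ± 0.64, adjusted p = 0.000313). LAX2, an auxin influx carrier, had 9.99, 8.34 and 10.2 CPM in ahk3 ahk4 and 27.6, 30.3 and 17.5 CPM in WT (-1.40 ± 0.27, adjusted p = 0.0041). In both genes the highest mutant library lay clear below the lowest WT library. AT1G79620, a leucine-rich repeat receptor-like kinase, had 7.02, 9.47 and 11.7 CPM in ahk3 ahk4 and 30.8, 32.2 and 38.1 CPM in WT (-1.84 ± 0.32, adjusted p = 0.00274). AT1G49850, a RING-type protein, had 2.70, 5.67 and 7.36 CPM in ahk3 ahk4 and 15.4, 17.7 and 18.8 CPM in WT (-1.73 ± 0.32, adjusted p = 0.00392). The remaining lower ones were AT3G01345, AT5G14500 (an aldose 1-epimerase family member), AT1G03940 (an acyltransferase family member), AT1G75280 (an NmrA-like family member) and AT1G05310 (a pectin lyase-like protein), with log2 fold changes between -3.02 and -1.496.

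One of the 23 higher genes, CYP86A2, a fatty acid hydroxylase of cutin synthesis, had 2349, 1414 and 501 CPM in ahk3 ahk4 and 357, 294 and 267 CPM in WT (2.22 ± 0.38, adjusted p = 0.00274). All mutant libraries were above WT, although they differed more than 4-fold among themselves. XYL4, a beta-xylosidase of the wall, had 12.2, 19.0 and 11.4 CPM in ahk3 ahk4 and 4.19, 4.72 and 2.49 CPM in WT (1.90 ± 0.30, adjusted p = 0.000945). COBL2, a COBRA-like protein anchored at the cell surface, had 13.3, 7.21 and 7.36 CPM in ahk3 ahk4 and 3.31, 2.41 and 1.45 CPM in WT (1.96 ± 0.32, adjusted p = 0.0016). AT5G37540, an aspartyl protease family member, had 22.1, 23.9 and 21.5 CPM in ahk3 ahk4 and 9.48, 5.53 and 5.59 CPM in WT (1.72 ± 0.28, adjusted p = 0.0016). For these 3 genes the lowest mutant library was more than 2 times the highest WT library. FH8, a formin that organises actin, PDX1.1, an enzyme of vitamin B6 synthesis, ENODL17, an early nodulin-like protein, AT3G21770, a class III peroxidase, and CXXS1, a thioredoxin-fold protein, belonged to the same 23, with log2 fold changes of 1.78, 1.66, 1.71, 1.75 and 1.41. AT2G44130, a kelch-repeat protein annotated with the same product as KMD4, had 43.1, 127 and 96.6 CPM in ahk3 ahk4 and 21.4, 19.3 and 25.6 CPM in WT (2.01 ± 0.37, adjusted p = 0.00409). DIP2, annotated as an E3 ubiquitin-protein ligase, had 17.5, 15.6 and 8.77 CPM in ahk3 ahk4 and 1.88, 3.92 and 2.80 CPM in WT (2.27 ± 0.41, adjusted p = 0.00328). The genotypes lay apart in both. The smallest adjusted p among higher genes after AT1G27565 was that of AT1G65845, an uncharacterised protein, with 182.8, 76.2 and 91.1 CPM in ahk3 ahk4 and 44.6, 31.5 and 18.7 CPM in WT (1.89 ± 0.29, adjusted p = 0.000636).

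**Figure D3:**
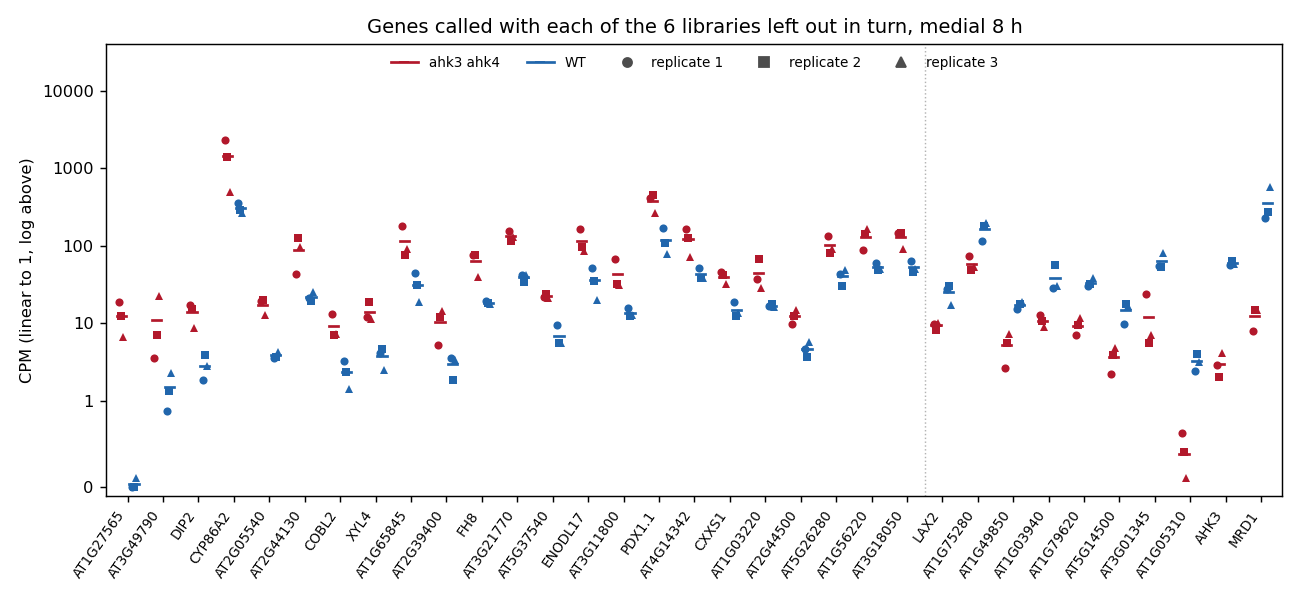
CPM (y axis, linear up to 1 and logarithmic above) in each library of medial segments at 8 h for the 33 genes called with each of the 6 libraries left out in turn, ordered by log2 fold change. Red is ahk3 ahk4 and blue is WT, symbols give the replicate and bars the mean of 3 libraries. The 23 genes left of the dotted line were higher and the 10 right of it lower in ahk3 ahk4.

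The largest rises among called genes with separate libraries and at least 5 CPM in the higher group were led by AT1G27565, an uncharacterised protein. It had 18.9, 12.3 and 6.71 CPM in ahk3 ahk4 and 0, 0 and 0.104 CPM in WT, where 1 read was counted. By counts this is 388-fold, with a 95% counting interval of 69.3 to 15370 (adjusted p = 0.000185). AT1G22630, an SSUH2-like protein, had 4.86, 6.88 and 5.41 CPM in ahk3 ahk4 and 0.662, 0.267 and 0 CPM in WT (4.18 ± 0.87, adjusted p = 0.0080). Both genes were called without ahk3 ahk4 replicate 1 as well (adjusted p = 0.000376 and 0.0178). GER3, a germin-like protein of the extracellular matrix, had 469, 67.5 and 53.6 CPM in ahk3 ahk4 and 20.3, 22.8 and 27.2 CPM in WT (3.07 ± 0.70, adjusted p = 0.0250). AT1G25550, a MYB-like transcription factor, had 89.1, 21.9 and 14.0 CPM in ahk3 ahk4 and 8.05, 4.90 and 2.07 CPM in WT (3.06 ± 0.69, adjusted p = 0.0193). In both the first mutant library was several times the others, and without it the log2 fold changes were 1.37 (adjusted p = 0.286) and 1.85 (adjusted p = 0.249).

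The remaining 6 of the 10 had at most 22.5 CPM in any of the 6 libraries. AT3G49790, a carbohydrate-binding protein, had 3.601, 7.13 and 22.5 CPM in ahk3 ahk4 and 0.882, 1.34 and 2.28 CPM in WT (2.86 ± 0.51, adjusted p = 0.00382). FKBP13, an immunophilin of the chloroplast lumen, had 7.65, 15.6 and 5.63 CPM in ahk3 ahk4 and 2.87, 0.891 and 0.311 CPM in WT (2.84 ± 0.65, adjusted p = 0.0160). These genes were called without ahk3 ahk4 replicate 1 too (adjusted p = 0.000376 and 0.0316). IREG3, a metal transporter of the ferroportin family, AT3G60540, a Sec61 beta subunit, CPISCA, a chloroplast iron-sulphur cluster scaffold, and GGT1, a gamma-glutamyl transpeptidase of glutathione breakdown, had log2 fold changes of 3.09, 2.80, 2.75 and 2.62. Their adjusted p values were 0.0498, 0.0251, 0.0461 and 0.0176 with all libraries and between 0.178 and 0.248 without ahk3 ahk4 replicate 1.

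The 10 largest falls by the same rule were led by MRD1 and AHK3. XPL1, the phosphoethanolamine methyltransferase that leads to choline and phosphatidylcholine, had 181, 120 and 215 CPM in ahk3 ahk4 and 639, 1257 and 1165 CPM in WT (-2.57 ± 0.53, adjusted p = 0.0105; 0.0698 without ahk3 ahk4 replicate 1). AT3G28580, an AAA-type ATPase, had 4.501, 7.04 and 4.98 CPM in ahk3 ahk4 and 17.2, 31.3 and 25.3 CPM in WT (-2.15 ± 0.51, adjusted p = 0.0229; 0.160 without ahk3 ahk4 replicate 1). AT2G31320, a poly(ADP-ribose) polymerase of DNA repair, had 0.270, 1.54 and 2.06 CPM in ahk3 ahk4 and 4.63, 4.55 and 6.94 CPM in WT (-2.06 ± 0.57, adjusted p = 0.0458; 0.294 without that library). In each of them the highest mutant library was well below the lowest WT library. AT5G14500 and AT5G05480 had log2 fold changes of -2.02 and -1.87 (adjusted p = 0.00384 and 0.0160), and AT5G05480 was not called without ahk3 ahk4 replicate 1 (0.133).

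Of the 9 genes of the Rubisco and Calvin cycle list, which serve carbon fixation in the chloroplast, 4 were called higher and 0 lower, and without ahk3 ahk4 replicate 1 none was called. The log2 fold changes of the 9 were positive with a median of 0.72, 6 had all mutant libraries above WT, and 3 overlapped. Over all genes tested 1.9% were called higher and 9.13% had all mutant libraries above WT. The summed level of the list was 3258, 2128 and 2484 CPM in ahk3 ahk4 and 1226, 1368 and 1414 CPM in WT. GAPA, the chloroplast glyceraldehyde 3-phosphate dehydrogenase subunit, had 251, 134 and 130 CPM in ahk3 ahk4 and 74.3, 63.4 and 28.1 CPM in WT (1.64 ± 0.33, adjusted p = 0.0071). RBCS1B, a gene of the small subunit of Rubisco, had 709, 411 and 459 CPM in ahk3 ahk4 and 217, 178 and 128 CPM in WT (1.59 ± 0.43, adjusted p = 0.0412). Neither gene overlapped between the genotypes. RBCS2B and RBCS3B, similar copies of the same gene family, had log2 fold changes of 2.03 and 1.09 (adjusted p = 0.0116 and 0.0288), and since reads shared between such copies could have been split or dropped by the counting, their single values are uncertain. Without ahk3 ahk4 replicate 1 none of the 9 was called and the median was 0.58. The share of multi-aligned reads was lowest in that library (3.82%), and its part in the level of the RBCS copies was not tested.

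The light-harvesting antenna gave mixed signs. Of its 16 genes 5 had a positive value, the median was -0.17, and 2 were called higher, against 1.9% of all genes tested. LHCB1.4, an antenna protein of photosystem II, had 124, 80.9 and 74.6 CPM in ahk3 ahk4 and 36.8, 23.2 and 47.2 CPM in WT (1.38 ± 0.33, adjusted p = 0.0196), and LHCA2, of photosystem I, rose by 1.05 ± 0.26 (adjusted p = 0.0232). Neither was called without ahk3 ahk4 replicate 1 (adjusted p = 0.160 and 0.131). In the basal segment at 8 h, which shares no library with the medial one, GAPA, RBCS1B and RBCS3B were also called higher in ahk3 ahk4 (1.54, 2.28 and 1.60, adjusted p = 0.0349, 0.0113 and 0.00362). FBA2, a chloroplast aldolase named after its values were seen, was 1.11 ± 0.30 higher in medial segments (adjusted p = 0.0373; 0.0957 without ahk3 ahk4 replicate 1) and 1.71 higher in basal segments (adjusted p = 0.00256). None of 84 plastid and 48 mitochondrial loci was called.

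The cuticle is the lipid layer that covers the epidermis. CER6, the condensing enzyme of wax chain elongation and one of the shoot epidermis markers, had 1905, 949.7 and 1013 CPM in ahk3 ahk4 and 540, 477 and 387 CPM in WT (1.46 ± 0.28, adjusted p = 0.00424; 0.0709 without ahk3 ahk4 replicate 1). A list of 36 cutin and wax genes was put together after values had been seen, so its counts only describe. Of its 33 tested genes 5 were called higher and none lower, against 1.9% and 0.363% of all genes tested. A positive value was found for 21, and the median was 0.38, or 0.14 without ahk3 ahk4 replicate 1. Beside CYP86A2 and CER6 the called genes were LACS2, an acyl-CoA synthetase of cutin, ABCG12, a wax exporter, and LTPG2, an anchored lipid transfer protein. LACS2 had 30.7, 11.3 and 10.2 CPM in ahk3 ahk4 and 6.07, 7.13 and 1.45 CPM in WT (1.83 ± 0.45, adjusted p = 0.0260). ABCG12 had 70.0, 29.2 and 40.5 CPM in ahk3 ahk4 and 29.2, 19.0 and 20.7 CPM in WT, so that the groups touched (1.02 ± 0.27, adjusted p = 0.0319). LTPG2 had 191, 104 and 70.8 CPM in ahk3 ahk4 and 60.6, 49.99 and 40.7 CPM in WT (1.27 ± 0.30, adjusted p = 0.0186). In each of these 3 genes ahk3 ahk4 replicate 1 was the highest library, and of the 5 called genes CYP86A2 alone was called without it.

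The summed level of the 10 shoot epidermis markers overlapped between the genotypes, at 3842, 3556 and 4150 CPM in ahk3 ahk4 and 2793, 3439 and 4465 CPM in WT. Of these 10 markers 6 had positive values, the median was 0.36, and CER6 alone was called. All mutant libraries lay above WT in 3 of the 10, against 9.13% of all genes tested, and 7 overlapped. ATML1, 1 of these 3 and the homeobox factor that defines the epidermis, had 188, 203 and 138 CPM in ahk3 ahk4, above the 122, 101 and 58.8 CPM of WT (0.91 ± 0.26, adjusted p = 0.0539). The part of the epidermal share of the tissue in the cuticle genes was not tested.

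Genes of xylem and of its secondary walls had mostly negative values. Of 12 tested xylem markers 11 had negative log2 fold changes. All mutant libraries lay below WT in 5 and 1 was called lower, against 6.67% and 0.363% of all genes tested. The median of the xylem markers was -0.80, or -1.002 without ahk3 ahk4 replicate 1. Their summed level was 141, 149 and 98.3 CPM in ahk3 ahk4 and 189, 198 and 215 CPM in WT. IRX9, a xylan synthesis enzyme, had 1.71, 1.13 and 2.06 CPM in ahk3 ahk4 and 5.74, 8.73 and 6.22 CPM in WT (-2.08 ± 0.50, adjusted p = 0.0212; 0.0997 without ahk3 ahk4 replicate 1). CESA7 and CESA8, subunits of the cellulose synthase of secondary walls, did not overlap between genotypes either, with log2 fold changes of -1.18 and -0.93 (adjusted p = 0.0861 and 0.123). IRX6, a COBRA-like protein of secondary wall cellulose, was outside the markers and among the 10 largest falls. It had 4.23, 1.70 and 7.15 CPM in ahk3 ahk4 and 14.6, 15.8 and 19.2 CPM in WT (-1.93 ± 0.52, adjusted p = 0.0409; 0.180 without ahk3 ahk4 replicate 1).

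A wider list of 33 secondary wall genes, which includes the xylem cellulose synthases and was put together after values had been seen, had 31 tested members. Of these 22 were negative, with a median of -0.65 (-0.64 without ahk3 ahk4 replicate 1, with no call). With all libraries 5 were called lower and 1 higher, against 0.363% and 1.9% of all genes tested. The called lower genes were IRX6, IRX9, UXS6, MYB43 and MAP70-5. UXS6, which makes UDP-xylose for xylan, had 14.9, 23.9 and 22.2 CPM in ahk3 ahk4 and 67.9, 54.9 and 47.7 CPM in WT (-1.48 ± 0.30, adjusted p = 0.00625), and it was called lower in the basal segment at 8 h as well (-1.37, adjusted p = 0.0233). IRX15-L, a protein of xylan synthesis, was the exception, with 85.0, 33.5 and 18.8 CPM in ahk3 ahk4 and 9.82, 8.47 and 10.9 CPM in WT (2.24 ± 0.44, adjusted p = 0.00625). C4H, the second enzyme of phenylpropanoid and lignin synthesis, had 979, 679 and 986 CPM in ahk3 ahk4 and 1194, 1438 and 2059 CPM in WT (-0.83 ± 0.22, adjusted p = 0.0355; 0.0950 without ahk3 ahk4 replicate 1). It was 1 of 14 genes of its list, of which 7 had positive values. The phloem markers had a median of -0.76 over 7 tested genes with no call. The cambium markers had a median of -0.12 over 10 with no call, and 5 of the 10 had positive values. All mutant libraries lay below WT in 2, against 6.67% of all genes tested, and 8 overlapped. PXY, 1 of these 2 and the receptor kinase of cambium maintenance, had 9.002, 5.99 and 10.8 CPM in ahk3 ahk4, below the 27.2, 22.8 and 12.4 CPM of WT (adjusted p = 0.114).

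Auxin genes gave 1 call, that of LAX2, while 0.363% of all genes tested were called lower. AUX1, the related influx carrier, and PIN6 and PIN7, efflux carriers, also had every mutant library below WT without passing (log2 fold changes between -1.68 and -0.22, adjusted p between 0.166 and 0.574), while TAR2 and YUC5 of auxin synthesis lay above WT (0.92 and 0.89). Over the 17 tested genes of auxin synthesis and transport the median was 0, and over 17 early auxin response genes it was -0.10 with no call. None of 12 tested regulators of root founder cells was called, 7 of the 19 listed had no read in these libraries, and ARF7, an auxin response factor upstream of lateral root founding, had 16.5, 25.3 and 26.7 CPM in ahk3 ahk4, below the 31.7, 37.6 and 40.0 CPM of WT (-0.67 ± 0.29, adjusted p = 0.195).

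Wall-loosening genes differed in sign by family. Of 9 tested expansins 1 had a positive value. All mutant libraries lay below WT in 4 and 1 was called lower, against 6.67% and 0.363% of all genes tested. The called gene, EXPA15, had 46.3, 22.9 and 21.1 CPM in ahk3 ahk4 and 57.8, 50.3 and 127 CPM in WT (-1.38 ± 0.34, adjusted p = 0.0255, and 0.0132 without ahk3 ahk4 replicate 1). Of 12 xyloglucan endotransglucosylases 9 had positive values with a median of 0.89 and no call, XTH16 having 15.5, 4.29 and 3.68 CPM in ahk3 ahk4 and 1.54, 2.67 and 1.35 CPM in WT (2.06 ± 0.60, adjusted p = 0.0577). GASA1, a small protein of the gibberellin-regulated family, rose with 368, 273 and 239 CPM in ahk3 ahk4 against 77.6, 72.0 and 139 CPM in WT (1.61 ± 0.40, adjusted p = 0.0264). It was the 1 called of 13 tested gibberellin genes, while 1.9% of all genes tested were called higher. Of these 13 genes 4 had positive values, and their median was -0.40. PIP2;4, a plasma membrane aquaporin, was called lower (-2.02 ± 0.53, adjusted p = 0.0347) with at most 0.758 CPM in ahk3 ahk4 and at least 1.76 CPM in WT. It was the 1 called of 17 tested aquaporins, of which 8 had positive values with a median of 0. GASA1 and PIP2;4 were not called without ahk3 ahk4 replicate 1 (adjusted p = 0.163 and 0.173).

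Markers of low sugar gave 1 call, while 1.9% of all genes tested were called higher. All 10 tested genes of the dark and sugar starvation list were positive, with a median of 1.66 (2.11 without ahk3 ahk4 replicate 1), but only KMD4 had separate libraries and only KMD4 was called. The summed level of this list was 50.7, 155 and 217 CPM in ahk3 ahk4 and 47.5, 70.0 and 47.0 CPM in WT, the first mutant library lying within the WT range. From 0 to 8 h the median log2 fold change of the list was -1.86 within ahk3 ahk4 and -4.07 within WT, comparisons that share the 8 h libraries with the genotype comparison. The 6 genes of sugar import and starch were also all positive (median 1.07, no call).

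Stress hormones and the cell cycle gave single calls, while 1.9% of all genes tested were called higher. JAZ6, a repressor of jasmonate signalling, had 30.7, 12.6 and 10.8 CPM in ahk3 ahk4 and 6.40, 4.37 and 1.24 CPM in WT (2.17 ± 0.45, adjusted p = 0.00799; 0.130 without ahk3 ahk4 replicate 1), alone among 24 tested jasmonate genes. The ethylene list had no call among 14 tested genes. Of these 9 had positive values, with a median of 0.18. All mutant libraries lay above WT in 5, against 9.13% of all genes tested, and 9 overlapped. The summed level of the list, which its most abundant genes weigh most in, was separate. It was 3841, 5086 and 5998 CPM in ahk3 ahk4 and 3545, 2838 and 1661 CPM in WT. ERS1, an ethylene receptor, had 89.6, 50.9 and 57.3 CPM in ahk3 ahk4 and 42.8, 38.8 and 29.0 CPM in WT (0.84 ± 0.24, adjusted p = 0.0510). TSO2, a ribonucleotide reductase subunit of DNA synthesis, had 155, 127 and 114 CPM in ahk3 ahk4 and 71.1, 60.5 and 42.2 CPM in WT (1.19 ± 0.25, adjusted p = 0.00984), 1 of 14 replication genes. CYCB1;3, a mitotic cyclin, was called at the edge (1.34 ± 0.38, adjusted p = 0.0498), 1 of 17 genes of G2 and mitosis, of which 13 were positive with a median of 0.42. NRT1.1, the dual-affinity nitrate transporter, rose by 0.74 ± 0.20 (adjusted p = 0.0409). It was the 1 called of 9 tested nitrate and phosphate genes, of which 4 had positive values with a median of -0.08. Without ahk3 ahk4 replicate 1 these 4 called genes did not pass (adjusted p between 0.0671 and 0.352).

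**Figure D4:**
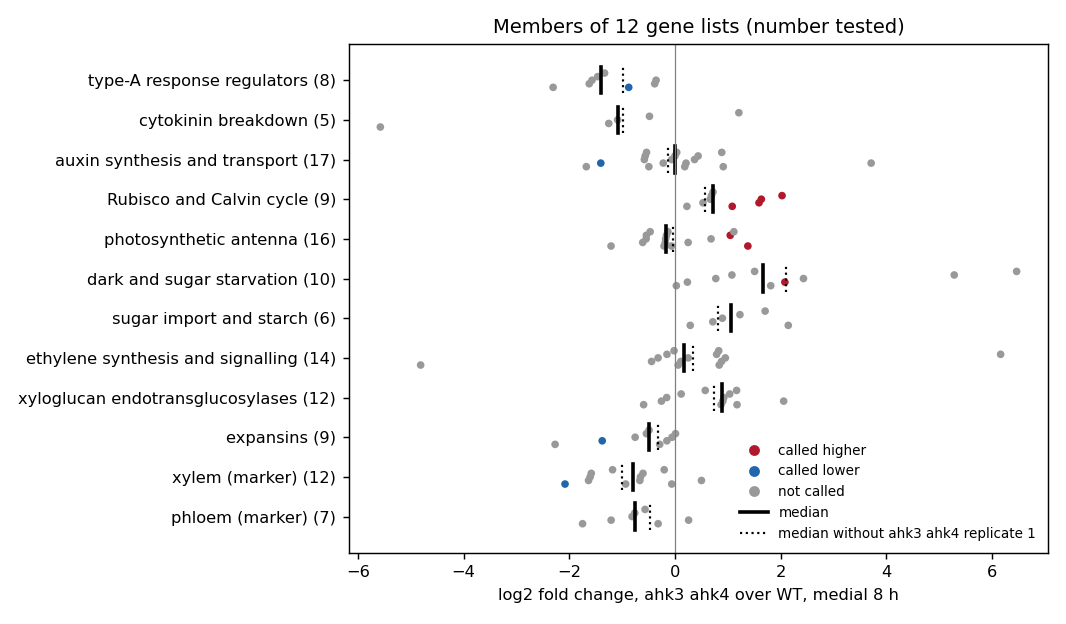
Log2 fold change (ahk3 ahk4 over WT, x axis) of each tested member of 12 gene lists in medial segments at 8 h, the lists shown having been chosen after their values were seen. Red points were called higher, blue points lower and grey points not called; the solid bar is the list's median and the dotted bar its median without ahk3 ahk4 replicate 1. The medians run from -1.40 for the type-A response regulators to 1.66 for the starvation list, against 0.01 for all genes tested.

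In the other gene lists no member was called higher or lower at 8 h. These covered abscisic acid and drought, salicylic acid and camalexin, brassinosteroid, flavonol and anthocyanin enzymes and their regulators, the HY5 pathway, shade response, chlorophyll synthesis, D-type cyclins, ribosome biogenesis, the circadian clock, low oxygen, reactive oxygen, wound-induced regulators, SAUR genes, suberin and endodermis, with medians between -0.57 and 0.59.

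The same genotype difference was then set beside that in the other segment and at the other times, whose libraries are separate. Of the 376 genes called higher in medial segments at 8 h, 12 were called higher in basal segments at 8 h, which is 3.19% of the 376 and 37.5% of the 32 basal genes, and none was called lower there. Among all genes tested 0.161% were called higher and 0.131% lower at basal 8 h. At medial 0 h 31 of the 376 (8.24%) were called higher (5.98% of 518) and 10 lower, against 2.61% and 3.16% of all genes tested. At medial 16 h 3 were called higher and 71 (18.9%) were called lower, which is 19.8% of the 359 genes lower there. Over all genes tested 1.51% were called higher and 1.81% lower at medial 16 h. In basal segments at 16 h the direction was the other one, with 73 of the 376 (19.4%) called higher, which is 16.0% of the 456 genes higher there, and 5 called lower, against 2.3% and 2.65% of all genes tested. At basal 0 h 6 were called higher and 10 lower, against 0.843% and 2.24% of all genes tested. Without ahk3 ahk4 replicate 1, 26 of the 72 genes called higher at 8 h (36.1%) were lower at medial 16 h (7.24% of the 359) and 9 (12.5%) were higher at basal 16 h. Of the 72 genes called lower at medial 8 h with all libraries, 10 were lower and 3 higher at medial 0 h, and 6 were lower and 5 higher at medial 16 h. In basal segments 11 of these 72 were lower and 0 higher at 0 h, 5 lower and 0 higher at 8 h, and 12 lower and 1 higher at 16 h. XYL4 was among those that changed side, at 1.90 at 8 h and -1.66 at 16 h (adjusted p = 0.00121). Called in all 6 genotype comparisons were 5 genes, AHK3, MRD1 and AT3G01345, lower in each, and AT1G27565 and AT1G64795, higher in each. Those comparisons called 5.77% of all genes at medial 0 h, 3.32% at medial 16 h, and 3.08%, 0.293% and 4.95% at basal 0, 8 and 16 h.

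Whether the genotype difference itself depended on time was tested as an interaction. Both interactions contain the 8 h libraries of the genotype comparison. For genes chosen by their 8 h values they are therefore no independent support. Between 0 and 8 h in medial segments it was called for 609 genes (3.07%), 381 with a difference that was more positive at 8 h (1.92%) and 228 more negative (1.15%). The first count was 337 without WT replicate 2 at 0 h, 399 and 280 without ahk3 ahk4 replicates 2 and 3 at 0 h, 383 without WT replicate 2 at 8 h and 404 without ahk3 ahk4 replicate 1 at 8 h. Between 8 and 16 h it was called for 2203 genes (11.1%), 834 more positive (4.21%) and 1369 more negative (6.91%) at 16 h. This count was 1361 without WT replicate 2 and 1236 without ahk3 ahk4 replicate 1 at 8 h, and 1387 without WT replicate 1 and 1352 without ahk3 ahk4 replicate 1 at 16 h. AT3G56260, an uncharacterised protein and one of the 3 most negative interactions between 0 and 8 h, had 26.6 ± 7.9 CPM in ahk3 ahk4 and 0.688 ± 0.12 CPM in WT at 0 h (SD, n = 3 each), and 34.8 ± 6.2 CPM in ahk3 ahk4 and 37.8 ± 4.8 CPM in WT at 8 h (interaction -5.36 ± 0.55, adjusted p = 2.14e-07). ARR4 did not differ detectably at 0 h (0.33, adjusted p = 0.44), and its interaction of -1.20 was called (adjusted p = 0.0210). LAX2, in contrast, was lower in the mutant at 0 h already (-1.27, adjusted p = 0.0021), and its interaction of -0.13 was not called (adjusted p = 0.921).

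Between medial and basal segments at 8 h the genotype difference differed for 10 genes (0.0505% of those tested), 9 of them relatively higher in medial mutant segments (0.0454%) and 1 relatively lower (0.00505%). The Casparian strip is the lignin band of the endodermis, and CASP1, PER64 and ESB1 are among the genes that act in it. CASP1, a membrane scaffold protein of the strip, had 209 ± 19 CPM in ahk3 ahk4 and 184 ± 36 CPM in WT in medial segments, against 26.1 ± 8.7 CPM in ahk3 ahk4 and 107 ± 33 CPM in WT in basal segments. PER64, a peroxidase of the strip, had 109 ± 28 CPM in ahk3 ahk4 and 121 ± 13 CPM in WT in medial segments, and 7.56 ± 4.07 CPM in ahk3 ahk4 and 56.6 ± 20.6 CPM in WT in basal segments. ESB1, a dirigent protein of the strip, had 387 ± 138 CPM in ahk3 ahk4 and 294 ± 214 CPM in WT in medial segments, and 32.8 ± 4.3 CPM in ahk3 ahk4 and 124 ± 34 CPM in WT in basal segments. In medial segments the libraries of these 3 genes overlapped between the genotypes, and in basal segments all 3 were called lower in ahk3 ahk4 (log2 fold changes between -2.89 and -1.91). The dirigent-like AT2G39430 and AT3G55230, UCC1, a uclacyanin, AT1G30750 and AT1G01240 had the same sign (interactions between 2.42 and 2.92), and GSTU20, a glutathione transferase, the opposite one (-2.14). In basal segments the ahk3 ahk4 mean of UCC1, AT2G39430, AT3G55230, AT1G30750 and AT1G01240 was likewise below the WT mean. Without ahk3 ahk4 replicate 1 the count was 13, and a fit of these 12 libraries alone called none, with 1378 genes (6.95%) at an unadjusted p under 0.05 in the fit of all groups and 38 genes by DESeq2.

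**Figure D5:**
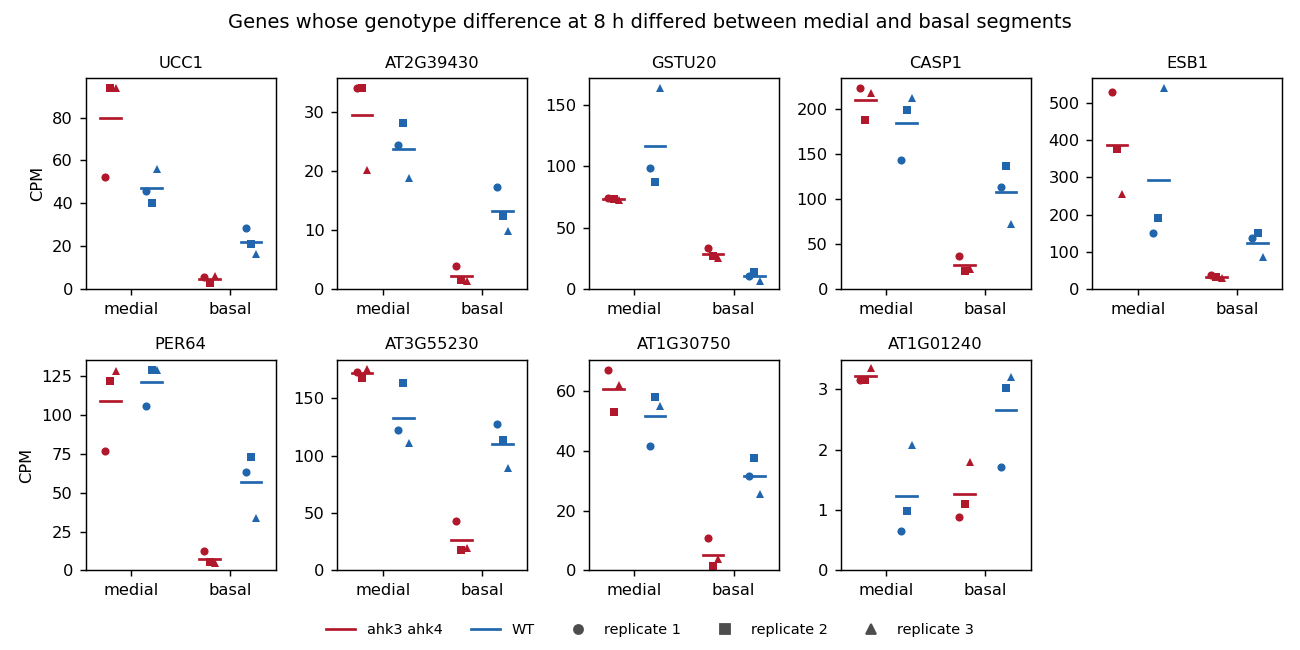
CPM (y axis, from 0) of 9 of the 10 genes whose genotype difference at 8 h differed between medial and basal segments, with medial segments left and basal segments right in each panel. Red is ahk3 ahk4 and blue is WT, symbols give the replicate and bars the mean of 3 libraries. In medial segments CASP1, ESB1 and PER64 overlap between the genotypes, whereas in basal segments every ahk3 ahk4 library lies below every WT library.

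The loci beside the mutated receptor genes were looked at because a mutant line can differ from WT around a selected locus. Among the 20 tested loci on either side of AHK3, 1 of 40 was called, AT1G27100, an actin cross-linking protein, with 37.6, 21.9 and 27.0 CPM in ahk3 ahk4 and 13.5, 10.1 and 10.5 CPM in WT (1.35 ± 0.26, adjusted p = 0.00481; 0.0553 without ahk3 ahk4 replicate 1). Around AHK4 1 of 40 was called, AT2G01600, an ENTH-domain protein of vesicle traffic, with 38.1, 40.2 and 34.3 CPM in ahk3 ahk4 and 21.5, 13.5 and 4.77 CPM in WT (1.501 ± 0.38, adjusted p = 0.0291; 0.122 without that library). Over all genes tested 2.26% were called, so 1 of 40 around each receptor gene is near that share. AT1G27565, the gene of the largest rise, lay 25 tested loci from AHK3. The part of linkage in these differences was not tested.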

How the data were processed

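RNA of hypocotyl segments was sequenced from the 3' end (QuantSeq FWD kit, per the labels' protocols). The deposited tables hold raw read counts per gene made by the authors. HTSeq and DESeq2 are listed without versions, per the submitters' processing notes. The aligner, genome build and strand setting stay unnamed (not given in the sources used here). Antisense or overlapping genes may therefore share reads. The 5 lines of each table that name no gene were left out of library totals and tests. Gene names and products came from the RefSeq annotation of Arabidopsis, which holds 32548 of the 32833 loci.

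Counts of all 36 libraries, in 12 groups of 3, were fitted in edgeR 4.0.16 (R 4.3.3) with TMM scaling, its default low-count filter and the robust quasi-likelihood test, with 24 residual degrees of freedom. This left 19819 genes. Genotype was tested at medial 8 h, with interactions by segment and by time; p-values were adjusted by Benjamini and Hochberg over all genes, and a gene below 0.05 was called. CPM uses TMM-adjusted totals, and SE is the absolute log2 fold change over the square root of F. The 6 libraries held 8200640 to 13184094 assigned reads; intervals and floors (3 counts) cover counting error only. The test was checked on simulated data. These gave all genes the same spread and held no deviant library, so the check does not cover ahk3 ahk4 replicate 1.

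Members and gene lists were chosen with earlier results of these data known. Named are, of called genes with separate libraries and at least 5 CPM in the higher group, the 10 largest rises and the 10 largest falls, the 5 smallest adjusted p per direction, the cytokinin lists, called members of other lists (at most 4, or the 1 of smallest p where none was called), the 3 highest and 3 lowest of each interaction, and called loci near AHK3 and AHK4; genes chosen otherwise, among them CESA7, CESA8, TAR2, YUC5, PIN6, PIN7, UXS6, IRX15-L, FBA2, AT2G44130 and those called with each library left out, were chosen after their values were seen. Alternatives were other scalings, no filter, DESeq2 1.42.0, fewer groups in the fit, a replicate block, a covariate, and each replicate left out. Results of some genes are not reported here.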

Additional observations from a re-analysis of the deposited data

Results flagged for a closer look

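The genes below were named above or had the largest interactions, and their genotype difference (ahk3 ahk4 over WT) was called by edgeR's quasi-likelihood test as unlike between segments or times. Many were named for their values at medial 8 h, and all these interactions contain the same 8 h libraries. A gene chosen for a high 8 h value thereby tends to be positive against 0 h and negative at 16 h. Of the 376 genes called higher at medial 8 h, 343 were called in the interaction of 16 h with 8 h. The value after each gene is the difference between the 2 genotype log2 fold changes. Between medial and basal segments at 8 h it was positive, that is, higher for the medial segment, for UCC1 (2.92), AT2G39430 (2.79), AT1G30750 (2.77), PER64 (2.73), AT1G01240 (2.44), AT3G55230 (2.42), ESB1 (2.31) and CASP1 (2.21). It was negative for GSTU20 (-2.14).

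In medial segments the genotype difference at 8 h minus that at 0 h was positive for AT5G62280 (9.99), AT5G19890 (9.97), CER4 (9.29), AT1G22630 (4.19), AT3G49790 (3.70), FKBP13 (3.68), GGT1 (2.81) and COBL2 (2.47). Further genes with a positive value were RBCS2B (2.32), AT5G37540 (2.04), AT1G65845 (1.90), CYCB1;3 (1.85), XYL4 (1.76), LHCB1.4 (1.66), AT1G27100 (1.26) and NRT1.1 (1.099). It was negative for ERL2 (-8.17), GSTU25 (-7.05), AT3G56260 (-5.36), AT5G05480 (-2.34), AT5G14500 (-2.34), AT1G49850 (-1.72) and ARR4 (-1.20).

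The genotype difference at 16 h minus that at 8 h was positive for ATCG00140 (9.55), ATCG00250 (7.06), ATCG00020 (5.78), AT3G28580 (4.47), IRX9 (3.45), IRX6 (2.56), XPL1 (2.42) and AT5G14500 (2.04). Further genes with a positive value were AT5G05480 (1.89) and C4H (1.03). It was negative for AT1G22630 (-7.34), AT2G05510 (-7.13), AT1G33055 (-7.08), AT1G25550 (-5.61), IREG3 (-5.18), FKBP13 (-4.83), CPISCA (-4.37) and AT3G49790 (-3.88). Less negative were XYL4 (-3.55), GER3 (-3.21), AT3G60540 (-3.06), KMD4 (-3.03), AT2G01600 (-2.91), GAPA (-2.51), AT5G37540 (-2.43) and GGT1 (-2.37). Further ones were CER6 (-2.27), TSO2 (-2.13), COBL2 (-2.10), AT1G01240 (-2.05), JAZ6 (-2.03), GASA1 (-1.85), LHCB1.4 (-1.75) and CYCB1;3 (-1.73). Also negative were AT1G27100 (-1.69), LHCA2 (-1.56) and RBCS3B (-1.30). In AT5G62280 and CER4 the WT group had no read at 8 h, in ERL2 it had none at 0 h, and in AT5G19890, GSTU25, ATCG00140 and ATCG00250 a group averaged at most 0.098 CPM, so these fitted values depend on the prior count and are no measure of a fold.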

How the results depend on the processing

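The genotype comparison called 448 genes; it called 1073 with DESeq2, 3 when only the compared groups were fitted, 143 in a fit of the 18 medial libraries, 276 with a covariate for the share of reads that fell outside genes, 272 with library totals without scaling factors (added after seeing the data), and between 59 and 1416 with a replicate left out. Of the calls 83.9% were higher, against 70.9% with DESeq2, 73.6% with the covariate and 64.5% without ahk3 ahk4 replicate 3. The segment interaction called 10 genes, 38 with DESeq2, 0 in the compared groups alone, 18 with the covariate and 7 to 14 with a replicate left out. The interaction of 8 h with 0 h called 609, 1107 with DESeq2, 121 in the compared groups alone, 379 in the medial libraries and 280 to 812 with a replicate left out. The interaction of 16 h with 8 h called 2203, 1134 in the compared groups alone, 855 with the covariate and 1236 to 3126 with a replicate left out. The cause was not tested in any of these. The medial libraries alone give no segment interaction. Same-numbered libraries deviated together at r of 0.021, -0.087 and -0.088 at medial 8 h, and not every sample correlated best with its own number. At basal 8 h these r were 0.115, 0.059 and 0.137, and differently numbered pairs lay between -0.092 and -0.017. The labels do not say whether a number marks a shared batch, and these values cannot settle it. With the replicate block the calls were 409, and 7, 478 and 1711 for the 3 interactions. Over the named genes and all settings 1803 values kept their side of the threshold, 213 lost a call and 33 gained one. Signs near 0 were not all kept. Of the 5 tested cytokinin response factors 3 were positive in the main fit and 2 with library totals without scaling factors. Under each of the 3 other scalings the lists of type-A response regulators, Rubisco and Calvin cycle, starvation, xylem and expansins kept their number of positive members. Genes near 1 CPM, such as ARR16, rest on few reads, and differences there that did not pass were not detectable at this depth.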

Other observations

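Genes of sulphate reduction, of histone H2A and of the proteasome were not covered above, and they were chosen after their values were seen. APR1 and APR3, enzymes that reduce activated sulphate, were lower in the mutant. APR3 had 65.0, 73.4 and 88.6 CPM in ahk3 ahk4 and 160, 163 and 129.5 CPM in WT (-0.99 ± 0.24, adjusted p = 0.0193), and APR1 fell by 0.91 on the log2 scale (adjusted p = 0.0449), while APR2 overlapped between the genotypes (-0.15). HTA10 and HTA13, which encode histone H2A, rose by 1.34 and 1.77 (both adjusted p = 0.0105), with every mutant library above WT. HTA13 had 281, 107 and 117 CPM in ahk3 ahk4 and 55.3, 60.7 and 31.7 CPM in WT. Of 34 genes with a proteasome product 2 were called lower, AT4G24820 and PBB2, against 0.363% of all genes tested. Among the 34, 23 were negative, and the median was -0.32, or -0.15 without ahk3 ahk4 replicate 1. None of these genes was called without that library.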
